A study of Mus musculus with 2 samples.

Results

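The genes described here are the ligands and receptors of the 4 classic axon guidance systems: semaphorins with plexins and neuropilins, ephrins with Eph receptors, slits with Robo receptors, and netrins with Unc5 receptors and Dcc. They were chosen by gene name, which gave 69 genes on 91 probes, out of 31870 genes and 39429 probes on the array. Of the 69 genes 63 were tested, 5 were not well above background and Efna4 had a spot marked as an outlier.

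Expression was measured on 2 two-colour oligonucleotide arrays of ureters from male NMRI mouse embryos at E13.5. Each array carried 1 Tbx2-GOF extract, Tbx18(cre/+);Hprt(Tbx2/Y), and 1 control extract, Tbx18(+/+);Hprt(Tbx2/Y), with Tbx2-GOF in the red channel on array 1 and in the green channel on array 2. Both genotypes thus carry Tbx2 inserted into Hprt on the single X chromosome. Cre at Tbx18 is present in Tbx2-GOF embryos alone, which therefore also have a normal Tbx18 allele fewer than controls. Cre under Tbx18 acts in the mesenchyme around the ureter and its descendants, not in the urothelium. How many embryos were pooled for an extract, and whether the arrays hold independent embryos, is not in the labels. Errors given as ± SD therefore measure the spread between 2 arrays, which may be technical. The p-values and intervals from limma combine that spread with a variance pooled over all genes, and they carry the same limit.

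Guidance ligands and their receptors steer growth cones by attraction or repulsion, and the same molecules position other migrating cells and vessels. Secreted class 3 semaphorins bind neuropilins, which signal through plexins, while most membrane-bound semaphorins bind plexins directly. In the urinary tract, SLIT2 acting on ROBO2 confines the domain of the growth factor GDNF so that a single ureteric bud forms, and EPHA4 and EPHA7 take part in joining the nephric duct to the cloaca.

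The 4 genes farthest from equal levels were Epha3, Nrp2, Plxnb3 and Ntn1. The first 30 of the 60 bases of their probes above background are given to show which stretch of each transcript was read (5′ to 3′ as in the scanner files, mm9 coordinates of the whole probe). The pairs for Nrp2 and Ntn1 lie apart in the gene and give separate readings.
Epha3 probe, chr16:63545155-63545214: acccagagaattatatgttcttttctacaa
Nrp2 brighter probe, chr1:62865129-62865188: tgagccagatcacgggaactcgagagcttt
Nrp2 dimmer probe, chr1:62843298-62843357: ggtttctgttggctgtcattgtcatctcca
Ntn1 brighter probe, chr11:68022986-68023045: atgaatatatttaatgacatggagaaagtt
Ntn1 dimmer probe, chr11:68040053-68040112: actgtgattcctattgcaaggcctccaaag
Plxnb3 probe, chrX:71017572-71017631: aaagtgactgacctgtgaactagggccaca

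Promoter windows are shown for Nrp2, Epha3, Plxnb3 and Sema3d, the lowest member after Ntn1, because TBX2 is a DNA-binding T-box factor. The windows of Ntn1 and Slit1 were not analysed here. Each runs from 250 bases before the RefSeq start to 50 bases after it (GRCm38.p6). Capitals mark GGTGTG, a core of the T-box motif, or its reverse complement CACACC.
Nrp2 promoter, chr1:62703067-62703366, plus strand: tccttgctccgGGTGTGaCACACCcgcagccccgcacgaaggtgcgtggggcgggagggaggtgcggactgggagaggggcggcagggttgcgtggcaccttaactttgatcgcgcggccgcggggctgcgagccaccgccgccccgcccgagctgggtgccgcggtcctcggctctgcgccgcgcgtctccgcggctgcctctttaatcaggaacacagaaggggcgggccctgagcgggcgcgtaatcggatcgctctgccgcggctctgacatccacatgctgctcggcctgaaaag
Epha3 promoter, chr16:63864126-63864425, minus strand: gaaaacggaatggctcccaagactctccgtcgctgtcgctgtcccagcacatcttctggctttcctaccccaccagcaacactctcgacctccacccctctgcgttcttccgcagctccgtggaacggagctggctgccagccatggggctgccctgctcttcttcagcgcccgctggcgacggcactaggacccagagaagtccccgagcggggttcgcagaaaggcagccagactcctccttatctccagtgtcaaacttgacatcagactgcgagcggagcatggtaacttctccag
Plxnb3 promoter, chrX:73756853-73757152, plus strand: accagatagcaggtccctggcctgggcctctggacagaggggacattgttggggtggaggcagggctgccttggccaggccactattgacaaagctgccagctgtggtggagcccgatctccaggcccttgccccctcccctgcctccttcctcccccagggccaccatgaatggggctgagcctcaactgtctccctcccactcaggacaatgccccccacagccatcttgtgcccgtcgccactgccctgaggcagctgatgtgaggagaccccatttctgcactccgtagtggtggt
Sema3d promoter, chr5:12382916-12383215, plus strand: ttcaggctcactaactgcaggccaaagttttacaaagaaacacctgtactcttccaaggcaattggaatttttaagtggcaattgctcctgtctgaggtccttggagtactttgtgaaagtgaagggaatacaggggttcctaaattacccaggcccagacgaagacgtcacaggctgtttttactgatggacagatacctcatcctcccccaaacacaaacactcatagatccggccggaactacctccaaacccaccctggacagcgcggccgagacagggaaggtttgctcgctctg
The core was found at -239 and -232 from the Nrp2 start, on opposite strands and 1 base apart, and was not found in the windows of Epha3, Plxnb3 and Sema3d. Over both strands GGTGTG occurred in 17 of 75 windows of 59 matched members (22.7%) and in 6257 of all 32851 windows (19.0%). The longer AGGTGTGA, which contains GGTGTG, occurred in 1 of the 75 (Sema4a) and in 419 of all windows (1.28%). A match is a description of the letters and not evidence of binding.

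On each array 66.4% to 72.7% of probes were well above background in either channel, and no spot was saturated. Tbx2 itself had log2 ratios of Tbx2-GOF over control of 0.04 and 0.56 on arrays 1 and 2 (mean 0.30 ± 0.37, SD, n = 2, limma adjusted p = 0.711); the labels do not say whether its probe reads transcripts of the inserted copy. Ureteric mesenchyme markers (11 of 11) and urothelial markers (13 of 13) were measured. Markers of some other cell types were not equal between the genotypes. The marker lists were chosen with earlier results of these data known, so their counts are descriptions. Over all genes 26.1% were higher on both arrays, 25.1% were lower on both and 0.64% passed limma's test. All 15 markers of Schwann cell precursors and sympathetic or chromaffin cells were higher in Tbx2-GOF on both arrays (2 passed the test, median log2 ratio 0.54 on array 1 and 1.24 on array 2), with summed intensities of 116748 and 122746 in Tbx2-GOF against 75551 and 45508 in control. Of 11 measured endothelial markers, with Erg below background, 9 were higher on both arrays and 0 passed limma's test (4 at an unadjusted p under 0.05). Their summed intensities were 86454 and 90041 in Tbx2-GOF against 68052 and 73447 in control. Of 10 skeletal muscle markers 9 were lower on both arrays and 4 passed, with sums of 32788 and 61187 in Tbx2-GOF against 76378 and 80471 in control. Of 8 nephron progenitor markers 5 were higher on both arrays and 1 lower, 2 passed, both higher, and the median log2 ratio was 0.39. Their sums were 51946 and 49742 in Tbx2-GOF against 42506 and 40267 in control. Of 13 urothelial markers 6 were higher on both arrays, 3 lower, and 1 of the lower ones passed (median 0.13). Their sums were 73054 and 82744 in Tbx2-GOF against 70817 and 76649 in control. Of 11 ureteric mesenchyme markers, which include Tbx2 and Tbx18, 1 was higher on both arrays, 4 were lower and 6 were mixed. With limma's test 0 of the 11 passed (1, a lower one, at an unadjusted p under 0.05, median -0.07). Tbx18, with a normal allele fewer in Tbx2-GOF, was at -0.31 and -0.59 (limma adjusted p = 0.266). The ureteric mesenchyme sums were 203963 and 202192 in Tbx2-GOF against 232468 and 180694 in control. Of 6 smooth muscle markers 0 passed (0 at an unadjusted p under 0.05, median 0.02), where Lmod1 and Myocd were below background. The smooth muscle sums were 49334 and 73032 in Tbx2-GOF against 45130 and 73887 in control. By sum these 2 lists went opposite ways on the 2 arrays. Every sum gives most weight to its brightest probes. Because these are bulk extracts, fewer cells of a type and less RNA per cell cannot be told apart, and the part of these cell types in the guidance gene values was not tested.

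No guidance gene passed the test. With limma's moderated test adjusted over all 21097 genes, 0 of 63 members had an adjusted p under 0.05. Over all genes 0.64% passed this test, 0.36% higher and 0.28% lower in Tbx2-GOF. In a separate-channel model 0 members passed, as did only 4 of all 21097 genes. With so few genes called, 0 of 63 does not set the members apart from all genes. The 4 nearest members had adjusted p-values from 0.0528 to 0.0778, just beyond the threshold, and their calls depended on the processing.

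Below the threshold, more members lay on the higher side than on the lower. Of the 63 members 32 (50.8%) were higher in Tbx2-GOF on both arrays, where 26.1% of all genes were, and 9 (14.3%) were lower on both, where 25.1% were. The other 22 (34.9%) had opposite signs on the 2 arrays, against 48.8% of all genes. At an unadjusted p under 0.05 there were 19 members (30.2%, against 9.34% over all genes). Of these 16 were higher (25.4%, against 5.63%) and 3 lower (4.76%, against 3.71%). The median log2 ratio of the members was 0.14 (0.15 on array 1, 0.21 on array 2), against -0.00052 for all genes tested. These are counts over genes picked by name, with no test of the group.

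The members were also counted by whether the 4 single-channel levels separated by genotype. Both Tbx2-GOF levels lay above both control levels in 24 members (38.1%, against 18.3% over all genes) and below them in 7 (11.1%, against 16.3%), and the levels overlapped in 32. At least 1.5-fold on both arrays in one direction, Epha3, Nrp2 and Plxnb3 were higher, as were 0.825% of all genes, and Ntn1 was lower, as were 0.545%. No member was 1.5-fold apart in opposite directions, against 0.104% of all genes. Across the 63 members the ratios of the 2 arrays had a Pearson correlation of 0.638 (Spearman 0.541), against 0.308 (0.125) over all genes. Genes on 1 pair of arrays are not independent replicates.

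**Figure D1:**
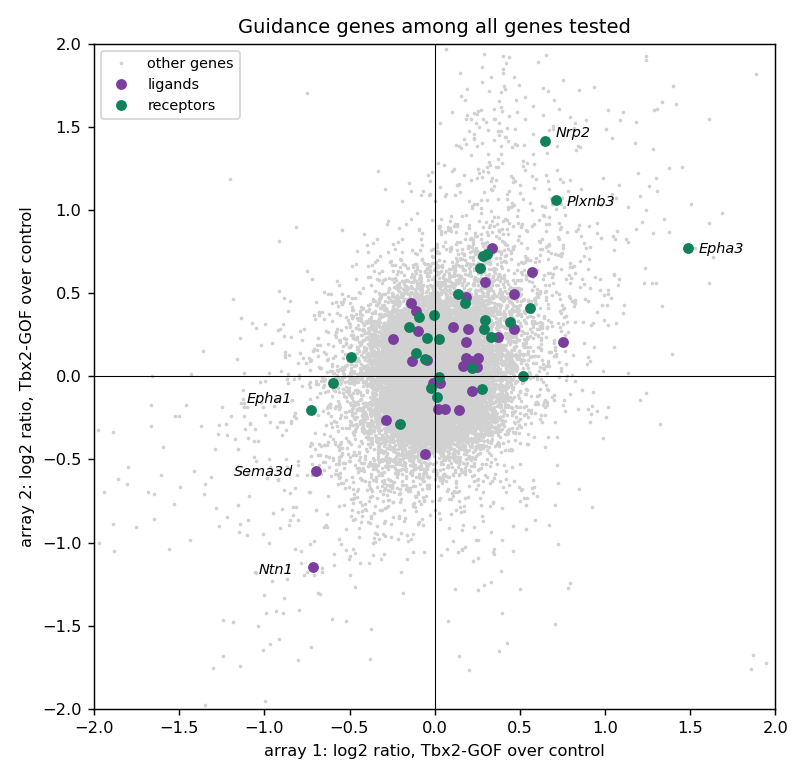
Log2 ratio of Tbx2-GOF over control on array 2 (vertical) against array 1 (horizontal) for 63 guidance genes, ligands in purple and receptors in green, over all other genes tested in grey. Epha3, Nrp2 and Plxnb3 lie to the upper right and Ntn1 to the lower left. The axes end at 2 either way, so a few other genes lie outside.

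Among semaphorin receptors the largest differences were in Nrp2 and Plxnb3. Nrp2, neuropilin 2, a co-receptor for class 3 semaphorins and for lymphatic VEGF, had normalised log2 intensities of 13.68 and 13.80 in Tbx2-GOF on arrays 1 and 2, against 13.04 and 12.38 in control. Both Tbx2-GOF extracts were above both control extracts, and the gap was wider on array 2, where the control extract was lower. Its log2 ratio was 1.03 ± 0.55 (2.04-fold, 95% interval 0.58 to 1.48, limma adjusted p = 0.0778). The second Nrp2 probe, against another RefSeq transcript, gave 0.70 and 0.95 on the 2 arrays (mean 0.83), so both probes were higher on both arrays. Nrp1, the related receptor of SEMA3A, went opposite ways, at -0.49 and 0.11 (adjusted p = 0.942), and the levels of the genotypes overlapped.

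Plxnb3 encodes plexin B3, a receptor for SEMA5A. Its levels were 8.97 and 9.01 in Tbx2-GOF against 8.26 and 7.95 in control, with a log2 ratio of 0.89 ± 0.25 (1.85-fold, 95% interval 0.55 to 1.22, limma adjusted p = 0.0528). The 2 Tbx2-GOF extracts were nearly equal and both exceeded control. Plxna4, which transduces class 3 and class 6 semaphorin signals in neurons, had 11.95 and 11.86 in Tbx2-GOF and 11.67 and 11.14 in control (log2 ratios 0.28 and 0.72, adjusted p = 0.260). Plxnd1, the receptor of SEMA3E on vessels, had 13.89 and 14.03 in Tbx2-GOF and 13.33 and 13.61 in control (log2 ratio 0.49 ± 0.10, adjusted p = 0.201), and its second probe was at 0.16 and 0.55. The groups did not overlap for either gene.

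Across the plexin family, 5 of 9 members were higher on both arrays, where 26.1% of all genes were, 1 was lower and 3 were mixed. The median was 0.31, and 3 had an unadjusted limma p under 0.05, against 9.34% of all genes. Counts in small families are descriptions. Plxna2 (0.32), another partner of neuropilins, and Plxnb1 (0.31), the receptor of SEMA4D, were higher on both arrays (adjusted p = 0.588 and 0.565). The lower one was Plxnc1, the receptor of SEMA7A, with log2 ratios of -0.20 and -0.29 (adjusted p = 0.701) while its dimmer probe went opposite ways, at -0.57 and 0.07. Plxna1 was close to equal at 0.01 and -0.12.

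Semaphorin ligands lay closer to equal levels. Of 20 measured semaphorins 11 were higher on both arrays and 2 lower, where 26.1% and 25.1% of all genes were, and 7 were mixed. The median log2 ratio was 0.14 and the means ranged from -0.63 to 0.55. Sema4d, a membrane-bound ligand of plexin B1, was the highest: 10.74 and 10.81 in Tbx2-GOF against 10.41 and 10.04 in control, with log2 ratios of 0.33 and 0.77 (mean 0.55, adjusted p = 0.211). Both class 5 members, transmembrane semaphorins with thrombospondin repeats, were higher on both arrays without overlap. Sema5a, the ligand of plexin B3, had 14.47 and 14.35 in Tbx2-GOF and 14.01 and 13.85 in control (log2 ratio 0.48 ± 0.02, adjusted p = 0.196). Sema5b was at 0.37 (adjusted p = 0.372), with a second probe at -0.07 and 0.64 on the 2 arrays. The plexin B3 receptor and its ligand gene were thus both higher on each array, each short of the test.

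The class 3 semaphorins, which are secreted, split. Sema3d lay farthest down, with 10.74 and 10.84 in Tbx2-GOF against 11.44 and 11.40 in control. The extracts of a genotype were close to each other and the genotypes were apart, at a log2 ratio of -0.63 ± 0.09 (1.55-fold lower, 95% interval -0.94 to -0.33, limma adjusted p = 0.108; chr5:12586981-12587040, mm9). Sema3g, a neuropilin 2 ligand of vessels, was higher, with 10.03 and 10.07 in Tbx2-GOF against 9.28 and 9.86 in control, mostly by way of array 1 (log2 ratios 0.76 and 0.21, adjusted p = 0.338). Its second probe was not well above background. Sema3a (0.15), Sema3b (0.33), Sema3e (0.11) and Sema3f (0.15) were higher on both arrays, and the bright Sema3c was at 0.06 and -0.20 with a second probe at 0.38 and -0.33. Class 6 genes lay between -0.03 and 0.15, Sema6d being at -0.01 and -0.04 with a second probe of the other sign on average (0.07).

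**Figure D2:**
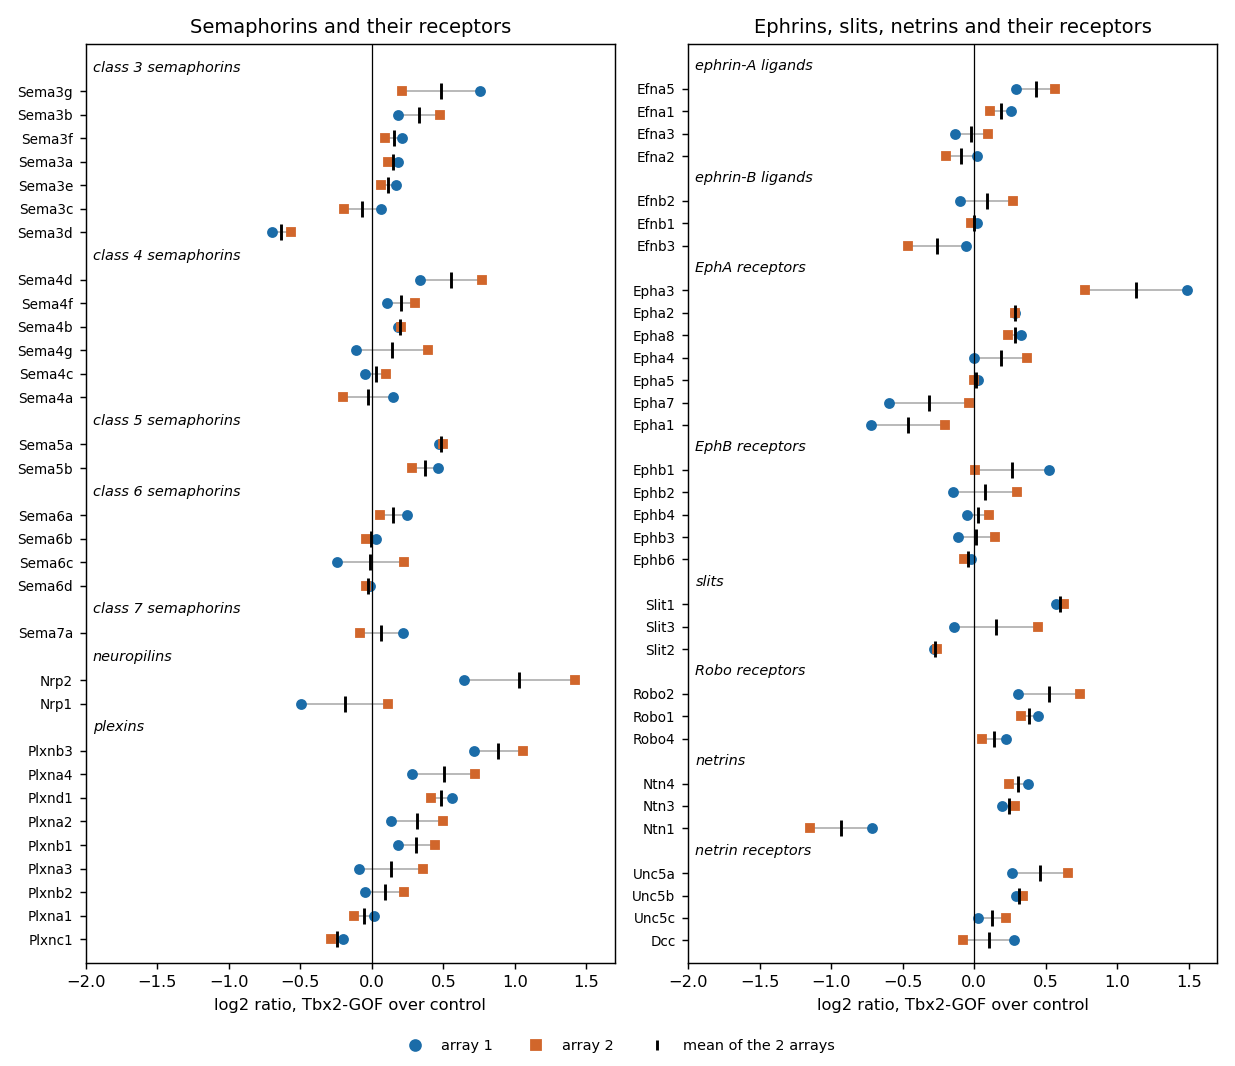
Log2 ratios of Tbx2-GOF over control for the 63 measured guidance genes, by family. Circles are array 1, squares array 2 and black bars their mean. Plxnb3, Nrp2 and Epha3 stand out on the right and Ntn1 and Sema3d on the left, while most genes lie within 0.5 of 0.

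In the Eph system 1 receptor stood apart from its family. Epha3, a receptor tyrosine kinase that binds ephrin-A5, had the largest mean ratio of the 63 members and ranked 59 from the top among 21097 genes. Its levels were 12.34 and 12.21 in Tbx2-GOF against 10.86 and 11.43 in control, so the Tbx2-GOF extracts were close together and the controls were both lower and farther apart. The log2 ratio was 1.48 on array 1 and 0.77 on array 2, a mean of 1.13 ± 0.50 (2.19-fold, 95% interval 0.70 to 1.56, limma adjusted p = 0.0533; chr16:63545155-63545214, mm9). The array has 1 probe for this gene.

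The other Eph receptors went both ways. Of the 12 Eph receptors measured, Epha3 included, 4 were higher on both arrays and 3 lower, where 26.1% and 25.1% of all genes were. The other 5 were mixed, and the median was 0.05. Epha1, an epithelial receptor, was lower, with 9.06 and 8.86 in Tbx2-GOF against 9.78 and 9.07 in control (log2 ratios -0.72 and -0.20, adjusted p = 0.350). Epha7 had 13.27 and 13.16 in Tbx2-GOF against 13.87 and 13.20 in control, with log2 ratios of -0.60 and -0.04 (adjusted p = 0.684). Its 2 dimmer probes gave means of -0.35 and -0.47, and all 3 probes were lower on both arrays. Epha4, its partner in nephric duct insertion, was at -0.0031 on array 1 and 0.37 on array 2 (adjusted p = 0.908). Epha2 (0.29) and Epha8 (0.28) were higher by similar amounts on both arrays. The EphB receptors, which bind ephrin-B ligands, lay between -0.05 and 0.26. Their genotypes overlapped in 5 of 5, as did those of 13799 of all 21097 genes.

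Of the ephrins, which are membrane-anchored ligands, Efna5 was the highest. It had 13.61 and 13.51 in Tbx2-GOF against 13.31 and 12.94 in control, a log2 ratio of 0.43 ± 0.19 (adjusted p = 0.297), so the ligand and its receptor Epha3 were both higher on each array. Efnb3 lay lowest at -0.06 and -0.47 (adjusted p = 0.749). Efnb2, which also marks arteries, was at -0.10 and 0.27, and Efnb1 was at 0.02 and -0.02, with a 95% interval of the mean from -0.30 to 0.30. Efna4 was left out of the test because its spot was an outlier on array 2. On array 1 it was bright, with a log2 ratio of -0.16.

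**Figure D3:**
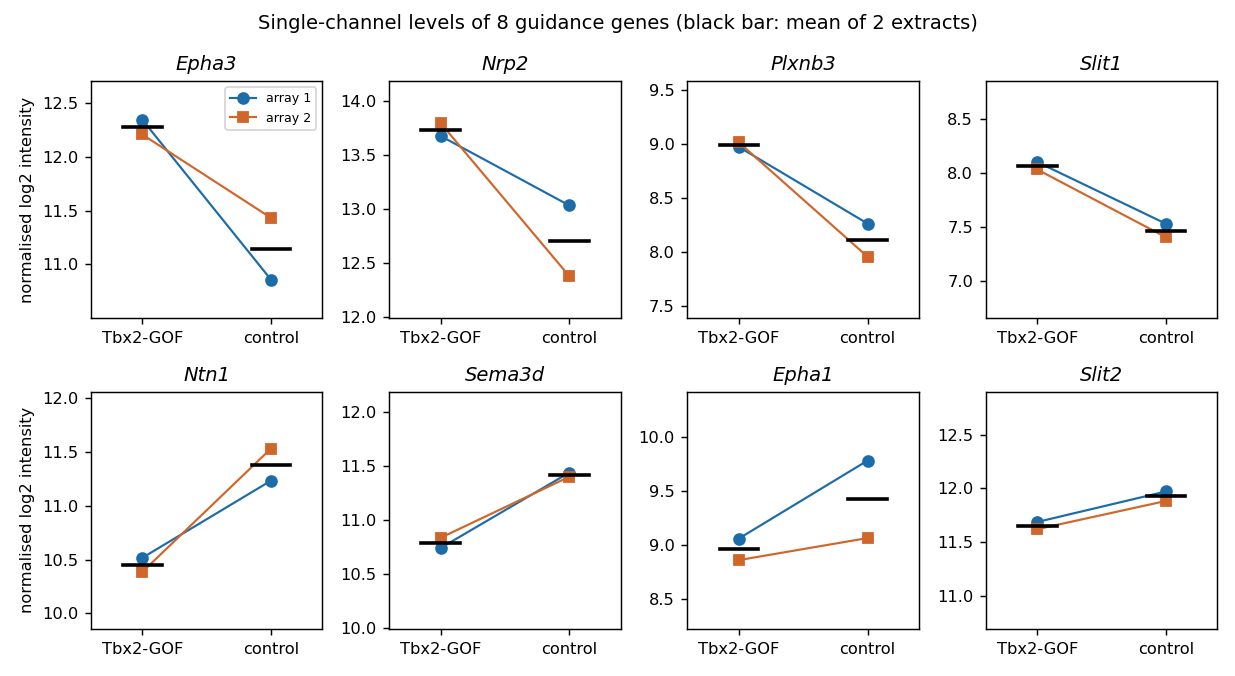
Normalised log2 intensity of 8 guidance genes in the Tbx2-GOF (left) and control (right) extract of each array, joined by array, with the mean of both extracts as a black bar. Each panel spans 2.2 log2 units. For Epha3, Nrp2, Plxnb3 and Slit1 both Tbx2-GOF values are above both control values, and for Ntn1, Sema3d, Epha1 and Slit2 both are below.

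Slits and Robo receptors were measured for 6 genes, 4 of them higher on both arrays, where 26.1% of all genes were. All 3 Robo receptors that passed the brightness filter were higher without overlap, as were 18.3% of all genes. Robo2 had 12.09 and 11.79 in Tbx2-GOF against 11.78 and 11.05 in control, log2 ratios of 0.31 and 0.74 (mean 0.52, adjusted p = 0.235), and its second probe gave 0.22 and 0.70. Robo1 had 12.44 and 12.24 in Tbx2-GOF against 11.99 and 11.92 in control (0.39 ± 0.08, adjusted p = 0.334), and Robo4, an endothelial receptor, was at 0.22 and 0.05. The 3 slit ligands went separate ways. Slit1 was dim but even, with 8.10 and 8.03 in Tbx2-GOF against 7.53 and 7.40 in control (0.60 ± 0.04, 1.52-fold, adjusted p = 0.119). Slit2, the ligand of ROBO2 in the kidney field, was lower by like amounts on both arrays, with 11.69 and 11.62 in Tbx2-GOF and 11.97 and 11.88 in control (-0.27 ± 0.02, adjusted p = 0.617). Slit3 was at -0.14 and 0.44.

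Ntn1 was the lowest of all members. It encodes netrin 1, the secreted laminin-related cue that attracts axons through DCC and repels them through UNC5 receptors. Its levels were 10.52 and 10.38 in Tbx2-GOF against 11.23 and 11.53 in control, with both Tbx2-GOF extracts below both controls. The log2 ratio was -0.72 on array 1 and -1.15 on array 2, a mean of -0.93 ± 0.30 (1.91-fold lower, 95% interval -1.28 to -0.58, limma adjusted p = 0.0528), and the gene ranked 92 from the bottom of all genes tested. The dimmer second probe, well above background in Tbx2-GOF on 1 of 2 arrays, gave -0.59 and -0.29. The other measured netrins were higher on both arrays, Ntn3 at 0.24 and the dim Ntn4 at 0.31 (adjusted p = 0.710 and 0.536). Ntn4 was above background in control on 1 array.

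Netrin receptors were higher or near equal. Unc5a had 9.24 and 9.21 in Tbx2-GOF against 8.98 and 8.55 in control (log2 ratios 0.26 and 0.65, adjusted p = 0.3), and Unc5b, which is also found on vessels, had 13.35 and 13.27 in Tbx2-GOF against 13.06 and 12.93 in control (0.32 ± 0.03, adjusted p = 0.491). Unc5c was at 0.02 and 0.22. Dcc cannot be read from its tested probe: the file places that probe on chromosome 7 (chr7:68417162-68417221, mm9), whereas the gene and its 2 other probes lie on chromosome 18 and those were not well above background in either genotype. The chromosome 7 probe was very bright, at 16.58 and 16.43 in Tbx2-GOF and 16.30 and 16.51 in control. The other 90 of the 91 member probes lie on their gene's own chromosome, and without Dcc the counts above become 32 higher, 9 lower and 21 mixed of 62. Besides Efna4, the members left untested were Epha6, Epha10, Ntn5, Robo3 and Unc5d, none of which was well above background in any channel.

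Where a gene had more than 1 probe above background, the means of the probes over both arrays mostly agreed in sign. This held for 12 of 15 members, and the exceptions, Sema3c, Sema6d and Ephb6, had means close to 0 on each probe. Single arrays agreed less: among the 12, Plxnc1, Sema5b, Sema3a, Efna3, Ephb4 and Epha5 each had a probe with opposite signs on the 2 arrays. The farthest apart were the Ntn1 probes, by 0.49, of which the dimmer was well above background in Tbx2-GOF on 1 of 2 arrays, so that its ratio is a less certain reading.

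Other genes of axon guidance, a list of 68 co-receptors, further cues and intracellular mediators, were set beside the members. Of 62 measured, 0 passed limma's test, with 7 higher and 5 lower at an unadjusted p under 0.05 (5.63% and 3.71% of all genes). On both arrays 22 were higher and 17 lower (26.1% and 25.1% of all genes), and 23 were mixed. The median log2 ratio was 0.02. The 3 highest means were those of Crmp1, Dscam and L1cam. Crmp1, a cytoskeletal mediator of semaphorin signals, was at 0.17 and 1.21 (adjusted p = 0.324), Dscam, a netrin co-receptor, at 0.42 and 0.88 (0.148) and the adhesion molecule gene L1cam at 0.02 and 1.28 (0.491). Lowest were Ablim3, an actin-binding protein, at -1.22 and -0.35 (0.189), the Nogo receptor gene Rtn4r at -0.47 and -0.71 (0.140) and Boc, a hedgehog co-receptor, at -0.57 and -0.42 (0.196).

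The array on which a gene differed more was not the same for all members. Nrp2, Plxnb3, Sema4d, Robo2, Plxna4 and Unc5a, all higher, and Ntn1, which was lower, were farther from 0 on array 2. So was the median of the neural markers (0.54 and 1.24 on arrays 1 and 2). Epha3 and Sema3g, which were higher, and Epha1 and Epha7, which were lower, were farther from 0 on array 1. So were the medians of the endothelial markers (0.34 and 0.19), the nephron progenitor markers (0.50 and 0.28) and the skeletal muscle markers (-1.33 and -0.64). These are examples, and a link between members and markers was not tested. Array and dye orientation cannot be told apart in this design.

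The call for the 4 leading genes turned on the processing while their direction did not. Over 12 ways of processing, Epha3 passed the test in 6, Ntn1 in 5, Plxnb3 in 4 and Nrp2 in 3. Their mean log2 ratios stayed between 1.13 and 1.16 for Epha3, 0.93 and 1.04 for Nrp2, 0.87 and 1.08 for Plxnb3, and -1.0 and -0.68 for Ntn1.

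**Figure D4:**
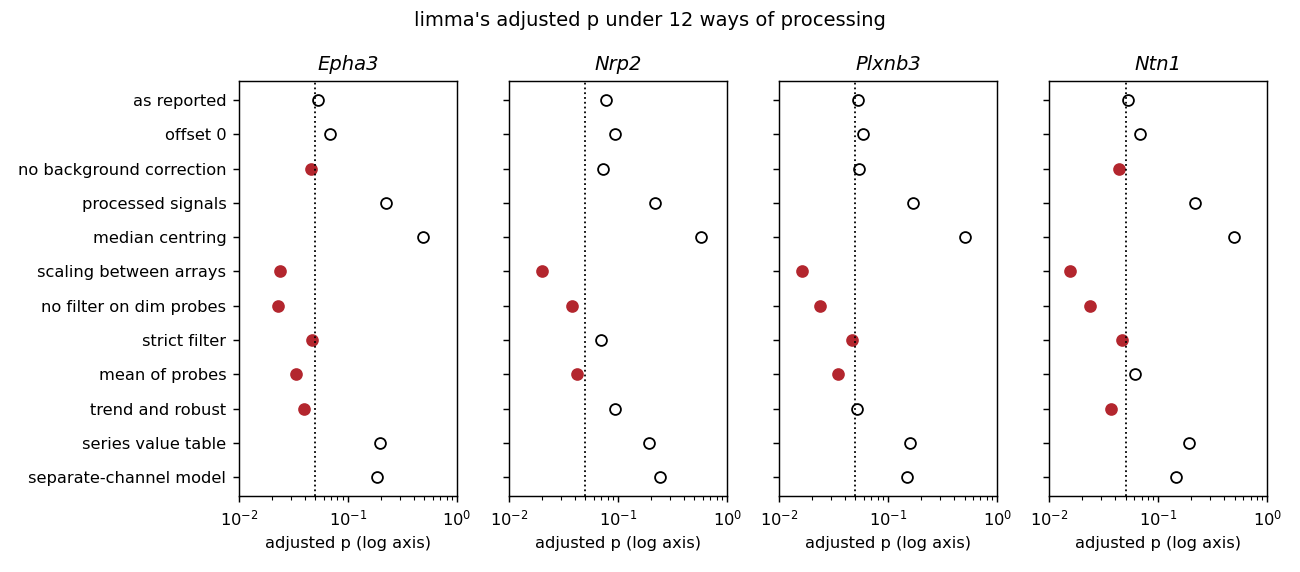
limma's adjusted p (horizontal, log axis) for Epha3, Nrp2, Plxnb3 and Ntn1 under 12 ways of processing the same 2 arrays, filled where under 0.05 (dotted line). The reported values lie from 0.0528 to 0.0778, and all 4 genes pass with scaling between arrays and with no filter on dim probes.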

How the data were processed

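The submitters' processing notes name Agilent Feature Extraction 10.7.3.1. Mean spot signals and local backgrounds are intensity values as scanned, per the file headers. Processed signals, also intensity values, were background-subtracted, detrended and dye-normalized by the software, per the file headers, and the deposited ratio column is on the log10 scale, red divided by green. Flags for outliers and for spots well above background are those deposited by the authors. A table of values for the series, also deposited, gives a signed fold score whose scale, centring and direction are not stated. Its medians were 1 and 1. Set against the software's ratio after orienting by dye, 99.6% of detected probes on each array differed by under 0.01 log10 units, so positive values were read as Tbx2-GOF over control. Whether a centring step was applied is unknown.

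Here limma 3.58.1 in R 4.3.3 was used: normexp with an offset of 50, loess (span 0.3, control and flagged spots at weight 0), and ratios turned by dye so that positive means higher in Tbx2-GOF. A probe was kept where either genotype was well above background on both arrays (26471 kept, 12958 not), and the brightest kept probe stood for a gene. Symbols came from RefSeq accessions of GRCm38.p6 (26412 probes matched, 67.0%), otherwise from the file. The 21097 genes were fitted together with lmFit and eBayes (two-sided; residual df 1, prior df 6.36), and p-values were adjusted by Benjamini-Hochberg at 0.05. The code was tested on simulated data. Single-channel levels are log2 intensities after Aquantile normalization, and levels of different probes are not comparable. Probe coordinates are on mm9. Exon and UTR positions were not analysed here. Precision is limited by the 2 arrays.

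Members and lists were chosen with earlier results of these data known. Genes given with values were those past the threshold, those 1.5-fold apart on both arrays, and the 12 highest and 12 lowest means. Also given were genes whose probes disagreed in the sign of their mean. Others appear beside their ligand, receptor or family. Alternatives changed the background correction, normalization, filter, probe rule, variance model, signal source or model, or left out an array. Leaving out Dcc was chosen after seeing the data.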

Additional observations from a re-analysis of the deposited data

How the results depend on the processing

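The number of guidance genes past the threshold was 0 as reported and with the series value table, the separate-channel model, median centring, processed signals and offset 0. It was 2 with no background correction and with trend and robust estimation, 3 with the strict filter and with the mean of probes, and 4 with scaling between arrays and with no filter on dim probes. Over all 21097 genes the calls were 135 as reported and 4 with the separate-channel model. They were 0 with median centring, with the value table and with processed signals. With offset 0 they were 111, with no background correction 159 and with trend and robust estimation 171. With the mean of probes they were 211 and with scaling 313. The strict filter left 62 members and 20200 genes, with 142 calls over all genes. With no filter 69 members and 31870 genes were tested, with 275 calls over all genes. The cause of these changes was not tested. The count of members at least 1.5-fold apart was 4 as reported, 5 with offset 0, 6 with the value table, 7 with processed signals, 4 in the other settings with both arrays that gave a count, and from 8 to 9 with 1 array alone, where no test is possible. Over all genes the shares at 1.5-fold, 0.825% higher and 0.545% lower, are given for the reported setting alone. Whether the count over all genes rose alike in the other settings was not tested. Leaving out Dcc changed neither member count. Among 275 values of named members in settings with both arrays, 2 changed sign, both of Sema6d: 0.0044 with median centring and 0.024 with the mean of probes. With 1 array left out Plxna1 ranged from -0.12 to 0.013, Sema3c from -0.20 to 0.062, Efna2 from -0.20 to 0.017 and Nrp1 from -0.49 to 0.11. The test was run on the ratio within an array, which already pairs both extracts. No further pairing was possible because the labels define 1 kind of array.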
